A study of Mus musculus with 22 samples.

Results

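Tmcc1, Cnpy2, Smim11, Wfdc15a, Gm32468 and Gm9465 are 6 of the 55335 genes in an FPKM table from mouse embryos with and without a knockdown (KD) of H2A.Z. FPKM are counts of sequenced fragments divided by transcript length and library size, so levels can be compared between genes per unit of length. The genes were chosen by their values, as genes with a log2 fold change near -2 or below in KD morulae and in KD blastocysts that share no long sequence with H2afz, the gene of H2A.Z targeted by the siRNAs. The KD contrasts at the morula and blastocyst stages were therefore used in the choice and are given as a description without a test, and the 2-cell stage is the only KD contrast in which the genes can be tested. The absence of long shared sequence did not hold for Tmcc1, because 1 of its transcripts carries 669 bases of the H2afz mRNA on the opposite strand.

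All embryos came from B6D2F1 females aged 8 weeks mated with B6D2F1 males, and were cultured from the zygote in G1-plus medium. For the KD, zygotes at 20 to 22 h after hCG, the hormone used to trigger ovulation, received about 10 pL of siRNAs against H2A.Z (a mixture, 20 μM). The treatment of the control embryos beyond the word control is not given for these libraries, so injection and the loss of H2afz mRNA cannot be told apart. For its quantitative PCR, the paper names control embryos that were not injected. Embryos were harvested as 2-cell embryos at 43 to 44 h, as morulae at 78 h and as blastocysts at 94 h after hCG, with 15 embryos pooled in each library. Each stage has 4 libraries of control embryos, and KD libraries number 3, 3 and 4. The labels do not say how many of the embryos pooled in these libraries had formed a blastocoel. The paper reports that fewer KD than control embryos became blastocysts. Libraries were made by Smart-seq2, which primes on poly(A) tails and does not keep the strand of the RNA. The depth of the libraries in reads is unknown, since FPKM carry no counts, and errors are taken from how libraries of a group differ. In pools of whole embryos, fewer cells of a kind and less RNA per cell cannot be told apart.

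In the table the genes are ENSMUSG00000030126.17 (Tmcc1), ENSMUSG00000025381.3 (Cnpy2), ENSMUSG00000051989.11 (Smim11), ENSMUSG00000051769.2 (Wfdc15a), ENSMUSG00000111013.1 (Gm32468) and ENSMUSG00000114689.1 (Gm9465). Their roles differ. TMCC1 is a coiled-coil membrane protein of the endoplasmic reticulum (ER) that acts where the ER touches endosomes that divide. CNPY2 is a small soluble protein of the ER of the canopy family, linked with the unfolded protein response. SMIM11 is a small protein with a membrane span and no well known function. WFDC15A belongs to the whey acidic protein domain family, many of which are secreted protease inhibitors. Gm32468 and Gm9465 are annotated as long intergenic noncoding RNAs.

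H2afz itself was read first as a check of the labels. Its FPKM were 1244, 1236, 905 and 1178 in control 2-cell libraries and 415, 139 and 112 in KD 2-cell libraries. In morulae, they lay between 1158 and 1511 in control libraries and between 25.7 and 30.3 in KD libraries, and in blastocysts between 1945 and 2656 and between 53.2 and 67.2. The KD libraries lay below all control libraries at each stage, and KD means were 19.4%, 2.09% and 2.67% of the control means of 2-cell embryos, morulae and blastocysts. At the 2-cell stage the log2 fold change (KD minus control, on log2(FPKM + 1) after scaling of libraries) was -2.53 ± 0.38 (SE) with an adjusted p of 0.544 in limma over 12160 genes, and the exact two-sided permutation test gave p = 0.0286, the smallest that 35 arrangements of 4 and 3 libraries can give. The adjusted p from limma was 9.72e-08 in morulae and 3.63e-08 in blastocysts. H2afv, the gene of the other H2A.Z protein, H2A.Z.2, was also lower in KD morulae, with a mean of 11.3 ± 1.51 FPKM (SD, n = 3) against 101 ± 8.75 (n = 4, adjusted p = 2.92e-06 in limma), and in KD blastocysts, with 15.3 ± 3.99 against 57.5 ± 6.4 (n = 4 each, adjusted p = 7.98e-05 in limma). The longest run of bases that H2afv and H2afz mRNAs share was 14.

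Tmcc1 had the largest differences between control and KD among the 6 genes in morulae. Its FPKM were 91.2, 115, 137 and 125 in control morulae and 3.50, 2.12 and 3.99 in KD morulae. In blastocysts they were 67.1, 261, 158 and 173 in control libraries and 4.58, 4.72, 4.13 and 6.89 in KD libraries. KD libraries were far below every control library at both stages, the low control blastocyst replicate 1 included. KD means were 2.73% of the control mean in morulae and 3.08% in blastocysts, close to the 2.09% and 2.67% of H2afz, and log2 fold changes were -4.72 ± 0.23 and -4.63 ± 0.31 (SE).

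At the 2-cell stage, Tmcc1 was at 81.1, 76.3, 10.7 and 24.4 FPKM in control libraries and at 20.0, 8.29 and 10.1 FPKM in KD libraries. The groups overlapped, because control replicate 4 lay below KD replicate 1. Control replicate 5 lay just above the KD libraries, and control replicates 1 and 2 lay well above them. The log2 fold change was -1.45 ± 0.63 (SE) with p = 0.0427 before and 0.828 after adjustment over 12160 genes in limma, and the exact two-sided permutation test gave p = 0.114. Replicate numbers 1 and 2 had a mean of 78.7 FPKM in control and 14.2 FPKM in KD libraries, and higher numbers had 17.5 FPKM in control libraries and 10.1 FPKM in the single KD library. Whether these ranges of numbers mark libraries made together is not given.

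**Figure D1:**
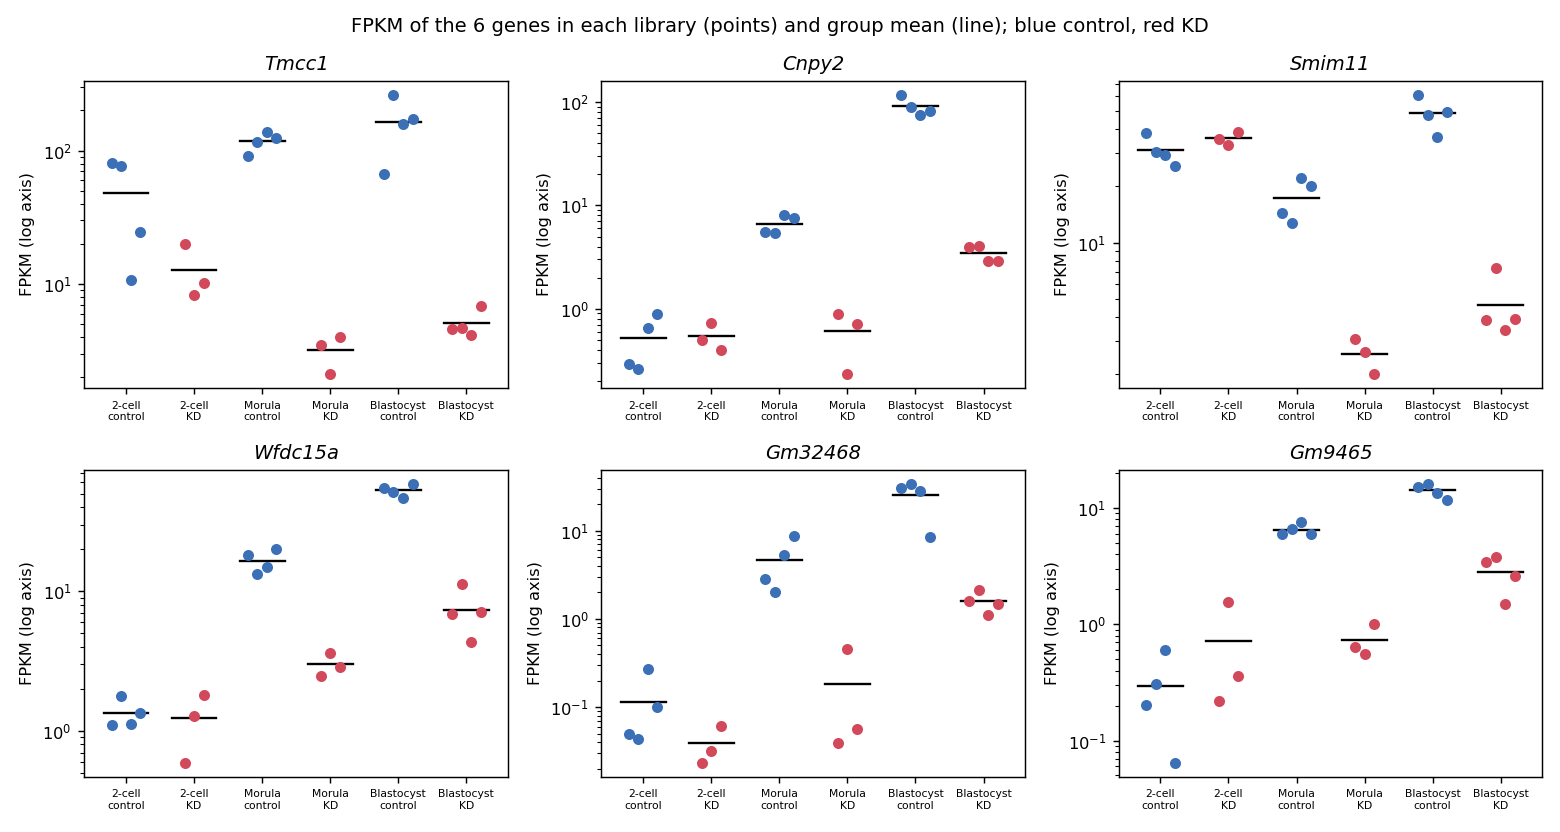
FPKM of the 6 genes (vertical axes, log scale) in the control (blue) and KD (red) libraries of 2-cell embryos, morulae and blastocysts, with each library as a point and the group mean as a black line. KD libraries lie below all control libraries in morulae and blastocysts, the contrasts that chose the genes, and overlap with control libraries at the 2-cell stage for all 6 genes.

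The values of Tmcc1 are uncertain because of the sequence it shares with the targeted gene. Tmcc1 lies on the minus strand of chromosome 6 (GRCm38, the assembly of mm10), at chr6:116018611-116193486, and has 13 annotated transcripts. A transcript annotated as a retained intron is a single exon of 2697 bases at chr6:116171617-116174313. Its first 669 bases, at chr6:116173645-116174313, are the reverse complement of bases 116 to 784 of the 1069 bases of the H2afz mRNA, without a mismatch. The run takes in all 387 coding bases of H2afz, and Gm8203, a processed pseudogene of H2afz of 387 bases annotated on the plus strand, lies within it at chr6:116173737-116174123. Of 54586 genes with transcripts in the annotation, Tmcc1 alone had an opposite-strand run as long as this (0.00183%). On the same strand, the longest run shared by Tmcc1 and H2afz was 12 bases, and 14.8% of genes had one as long.

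Fragments of the H2afz mRNA that lie within the run match the bases of both places. A library without strand does not separate them by direction. Those that cross joined exons align with a gap at H2afz and without one in Tmcc1, and no alignments were examined. How the authors' quantification divided fragments of the run between H2afz, Tmcc1 and Gm8203 is not given in the sources used here. The part these fragments have in the Tmcc1 values was not tested.

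**Figure D2:**
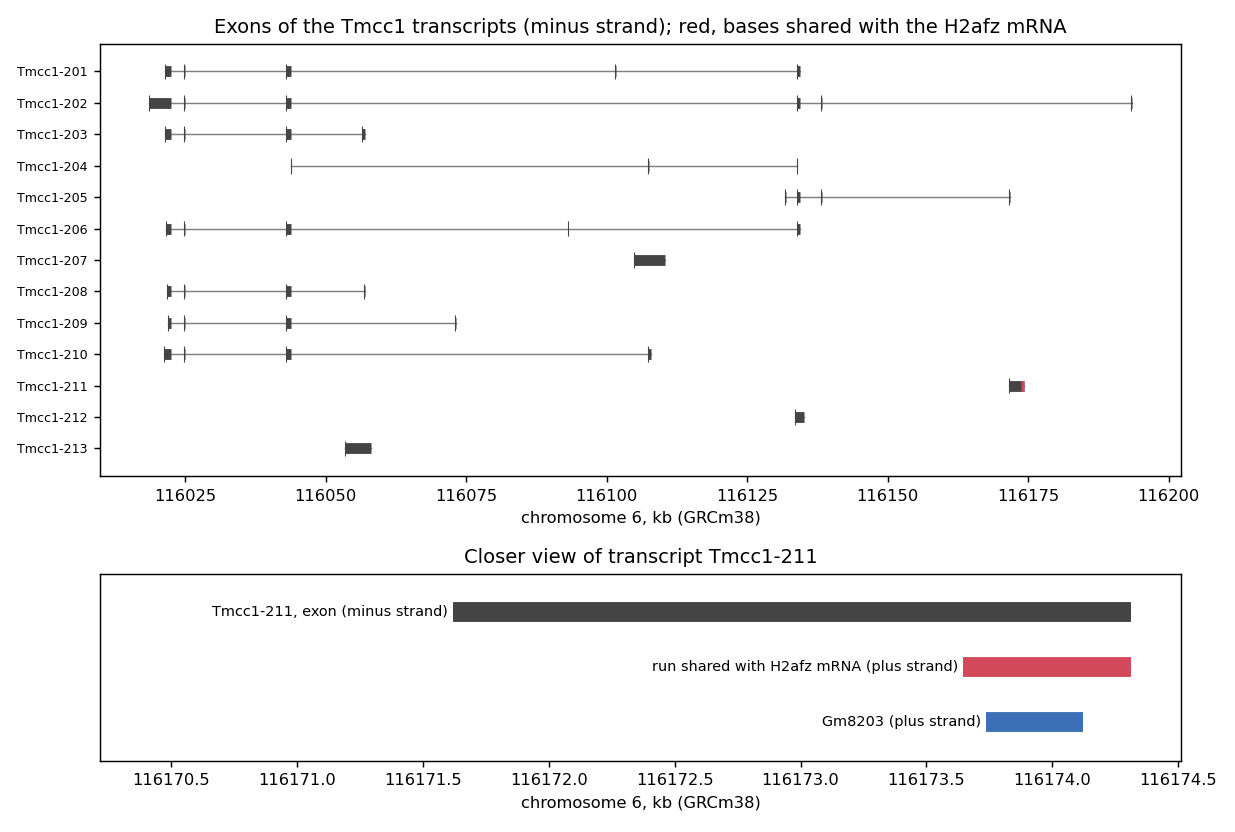
Map of Tmcc1 on chromosome 6 (horizontal axes, position in kb, GRCm38), with exons of the 13 transcripts as dark bars in the upper panel and the retained intron transcript alone in the lower panel. The 669 bases shared with the H2afz mRNA (red) lie in its exon and hold the pseudogene Gm8203 (blue).

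Over the 22 libraries, Tmcc1 FPKM were between 1.18% and 13.8% of H2afz FPKM. Tmcc1 FPKM were 7.87% to 9.09% of H2afz FPKM in control morulae and 8.27% to 13.8% in KD morulae. The range was 2.53% to 10.7% in control blastocysts and 7.03% to 12% in KD blastocysts. It was 1.18% to 6.52% in control and 4.83% to 9.02% in KD 2-cell libraries. The ranges of control and KD libraries overlapped at each stage. In morulae the control mean of Tmcc1 was 36.6 times the KD mean. Tmcc1 was chosen by this contrast and that of blastocysts, so the overlap of ratios at these stages is a description and no test. The lowest ratios were those of control 2-cell replicate 4, with 1.18%, replicate 5, with 2.07%, and control blastocyst replicate 1, with 2.53%, where H2afz itself was at 905, 1178 and 2656 FPKM.

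**Figure D3:**
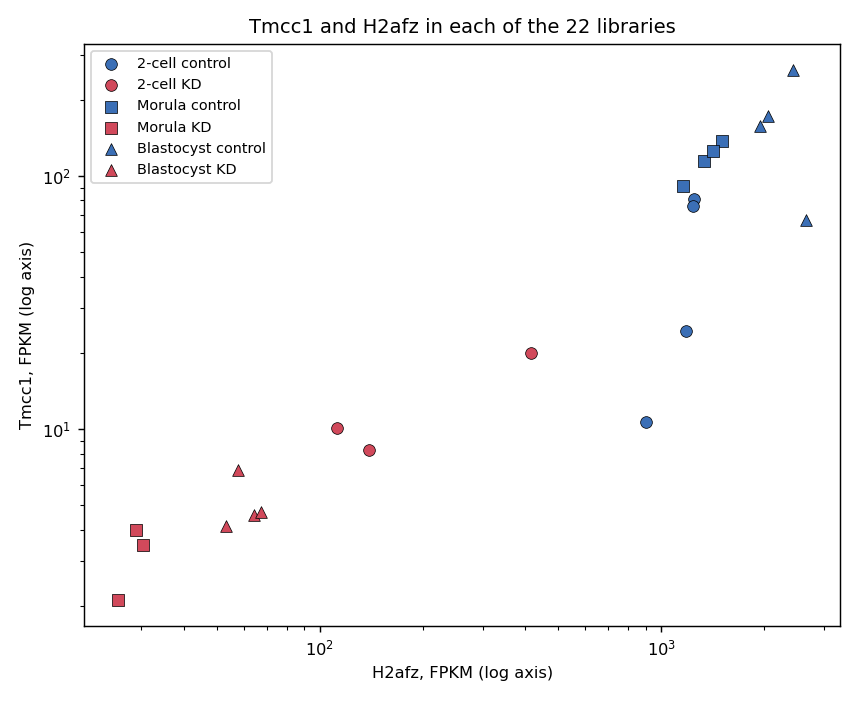
Tmcc1 FPKM (vertical axis, log scale) against H2afz FPKM (horizontal axis, log scale) in each of the 22 libraries, with control libraries in blue, KD libraries in red and a symbol for each stage. The libraries fall along a rising band, with control 2-cell replicates 4 and 5 and control blastocyst replicate 1 below it.

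Besides Tmcc1, 4 genes shared a run of at least 31 bases with the H2afz mRNA on either strand, all processed pseudogenes, and this set was listed after the values had been seen. Gm6722, with a run of 81 bases, was at 34.9 ± 6.20 FPKM in control and 0.824 ± 0.320 in KD morulae (SD, n = 4 and 3), or 2.36% of control. Gm13007, with a run of 116 bases, was at 11.8 ± 0.743 and 0.363 ± 0.189 FPKM, or 3.07%. Gm6108, with a run of 77 bases, was at 1.29 ± 0.290 and 0.0133 ± 0.0230 FPKM. At the 2-cell stage KD libraries of Gm6722 (21.6% of control) and Gm13007 (17.7%) lay below all control libraries, and those of Gm6108 overlapped. KD libraries of these 3 genes lay below all control libraries in morulae, and in blastocysts as well, where KD means were 2.89%, 2.61% and 11.3% of control. Gm8203, inside Tmcc1, was at 1.59 ± 0.745 FPKM in control and 0.165 ± 0.217 in KD blastocysts (n = 4 each), and at most 0.342 FPKM in any library of the other stages.

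Cnpy2 was nearly silent at the 2-cell stage and had, after Tmcc1, the lowest KD share of control in blastocysts. Its FPKM were 117, 89.5, 75.0 and 82.4 in control blastocysts and 3.92, 4.07, 2.89 and 2.90 in KD blastocysts. In morulae they were 5.58, 5.45, 8.07 and 7.48 in control and 0.890, 0.234 and 0.715 in KD libraries. The groups were far apart at both stages, with KD means of 9.22% of control in morulae and 3.79% in blastocysts. The log2 fold changes were -2.18 ± 0.22 and -4.35 ± 0.22 (SE). Fold changes on the log2(FPKM + 1) scale understate differences where KD values are under 1 FPKM, as in KD morulae here.

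Smim11, like Tmcc1, was well above the filter in control libraries of all 3 stages. It was at 14.3, 12.7, 22.1 and 20.1 FPKM in control morulae and at 3.05, 2.61 and 2.00 FPKM in KD morulae. In blastocysts it was at 61.0, 47.8, 36.5 and 49.6 FPKM in control libraries and at 3.89, 7.30, 3.43 and 3.94 FPKM in KD libraries. KD replicate 4 was the highest of the KD blastocyst libraries, still below all control libraries. KD means were 14.8% and 9.52% of control, with log2 fold changes of -2.24 ± 0.23 in morulae and -3.16 ± 0.26 in blastocysts (SE).

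Wfdc15a was at 18.1, 13.2, 15.0 and 20.0 FPKM in control morulae and at 2.48, 3.60 and 2.89 FPKM in KD morulae. It was at 54.9, 50.9, 46.7 and 58.8 FPKM in control blastocysts and at 6.87, 11.2, 4.36 and 7.05 FPKM in KD blastocysts. Control libraries were close together at both stages, and KD means were 18% and 14% of control, with more relative spread among KD than control blastocysts. The log2 fold changes were -2.03 ± 0.19 in morulae and -2.73 ± 0.25 in blastocysts (SE).

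The long noncoding RNA Gm32468 had a wide spread among control libraries. It was at 2.82, 2.03, 5.24 and 8.74 FPKM in control morulae and at 0.0392, 0.450 and 0.0562 FPKM in KD morulae. In blastocysts it was at 30.2, 34.2, 28.0 and 8.42 FPKM in control libraries and between 1.11 and 2.13 FPKM in KD libraries. Control blastocyst replicate 6, at 8.42 FPKM, stood below the other 3 control libraries and above all KD libraries. KD means were 3.87% and 6.25% of control, and the log2 fold changes were -2.09 ± 0.37 in morulae and -3.19 ± 0.37 in blastocysts (SE). The morula value, from KD libraries under 1 FPKM, was -4.09 with a pseudocount of 0.1 and -1.37 with replicate number as a block. In morulae only replicate numbers 1 and 2 occur in both groups. The block value rests on these and takes nothing from control replicates 7 and 8 or KD replicate 6.

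The other long noncoding RNA, Gm9465, was at 5.97, 6.55, 7.55 and 6.02 FPKM in control morulae and at 0.632, 0.551 and 1.00 FPKM in KD morulae. It was at 15.3, 16.2, 13.5 and 11.7 FPKM in control blastocysts and at 3.45, 3.77, 1.48 and 2.59 FPKM in KD blastocysts. It was the gene nearest the limit of the choice, with KD means of 11.2% and 19.9% of control and log2 fold changes of -2.05 ± 0.18 and -2.01 ± 0.25 (SE). In all, KD libraries lay below all control libraries for 6 of 6 genes in morulae, where 22.9% of 10989 genes did so, and for 6 of 6 in blastocysts, where 20.0% of 11828 genes did so, a separation that the choice of the genes favours.

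The 2-cell embryos were not used in the choice. Of the 6 genes, 3 passed the filter of at least 1 FPKM in at least 3 libraries at this stage, and none of these 3 was a DEG, a gene past both limits used with limma (adjusted p below 0.05, log2 fold change beyond 1 in either direction). No gene of 12160 was a DEG in either direction at this stage (0%), H2afz included, while 701 had an unadjusted p under 0.05 in limma. Smim11 was at 38.5, 30.5, 29.4 and 25.6 FPKM in control and at 35.7, 33.1 and 38.7 FPKM in KD 2-cell libraries, with a log2 fold change of 0.28 ± 0.18 (SE, adjusted p = 0.839 in limma) and p = 0.2 in the exact two-sided permutation test. Wfdc15a was at 1.11, 1.78, 1.13 and 1.34 FPKM in control and 0.593, 1.28 and 1.81 FPKM in KD 2-cell libraries, with a log2 fold change of -0.06 ± 0.24 (SE, adjusted p = 0.972 in limma) and an exact permutation p of 0.743. The KD libraries of both genes overlapped with the control libraries.

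Cnpy2, Gm32468 and Gm9465 did not pass the filter at the 2-cell stage. Cnpy2 was between 0.262 and 0.889 FPKM over the 7 libraries, and Gm32468 between 0.0234 and 0.269 FPKM. Gm9465 was between 0.0645 and 1.56 FPKM, with the highest value in KD replicate 2. Control and KD libraries overlapped for each of the 3 genes, with exact two-sided permutation p-values of 0.886 for Cnpy2, 0.229 for Gm32468 and 0.371 for Gm9465. For 0 of the 6 genes did the KD libraries lie below all control libraries. Of the 12160 genes past the filter, which hold only 3 of the 6, 4.13% had their KD libraries there.

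Between stages, 5 of the 6 genes had higher deposited FPKM in every control morula library than in every control 2-cell library, as had 52.6% of the 10335 genes tested in both morulae and blastocysts. With the 22 libraries scaled together Tmcc1 overlapped, which left 4 genes, against 49.1%. The gene that fell was Smim11, whose control mean was 31 ± 5.42 FPKM in 2-cell embryos and 17.3 ± 4.50 in morulae (SD, n = 4 each), with every morula library below every 2-cell library, and then 48.7 ± 10.1 in blastocysts. With or without scaling, control blastocysts lay above control morulae without overlap for Cnpy2, Smim11, Wfdc15a and Gm9465, which makes 4 of 6 genes, against 23.6% of 10335 genes as deposited. They lay above control 2-cell embryos for Cnpy2, Wfdc15a, Gm32468 and Gm9465, again 4 of 6, against 49.6%. These levels are a description, since control morulae and blastocysts were part of the choice.

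Among control embryos, Cnpy2 rose from 0.525 ± 0.303 FPKM in 2-cell embryos to 6.65 ± 1.32 in morulae and 91.0 ± 18.3 in blastocysts (SD, n = 4 each). With the 22 libraries scaled together, the control means of blastocysts and 2-cell embryos stood in a ratio of 161 for Cnpy2 and of 207 for Gm32468, whose 2-cell values were near 0. The ratio was 43.9 for Gm9465 and 35 for Wfdc15a. It was 2.83 for Tmcc1 and 1.41 for Smim11, for which the groups overlapped. In control blastocysts the order of the means was Tmcc1, Cnpy2, Wfdc15a, Smim11, Gm32468 and Gm9465. Tmcc1 overlapped with Cnpy2, Wfdc15a overlapped with Smim11, and Gm32468 overlapped with Gm9465 because of its low replicate 6. In control morulae, Smim11 and Wfdc15a overlapped, as did Cnpy2, Gm9465 and Gm32468.

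All 6 genes had higher deposited FPKM in every KD blastocyst library than in every KD morula library, as had 26.8% of the 10335 genes. With the libraries scaled together only Cnpy2, Gm32468 and Gm9465 did, against 19.5%, and Tmcc1, Smim11 and Wfdc15a overlapped. The scaled ratio of means was 1.42 for Tmcc1, 1.66 for Smim11 and 2.24 for Wfdc15a. It was 3.52 for Gm9465, 5.11 for Cnpy2 and 7.80 for Gm32468. H2afz rose by a ratio of 1.92 between the same groups. In KD morulae Cnpy2 was at a mean of 0.613 ± 0.340 FPKM (SD, n = 3), which overlapped with its control 2-cell libraries, and Gm32468 and Gm9465 overlapped with theirs too. Wfdc15a in KD morulae, at 2.99 ± 0.566 FPKM, lay above all its control 2-cell libraries. Tmcc1 and Smim11 in KD morulae lay below all their control 2-cell libraries, scaled or as deposited. With the libraries scaled together, 25.7% of the 10335 genes did so. For Smim11 the KD mean went from 35.8 ± 2.84 FPKM in 2-cell embryos to 2.55 ± 0.525 in morulae (SD, n = 3 each).

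KD blastocysts were also set beside control morulae, an earlier stage. KD blastocysts lay below all control morulae for 5 of the 6 genes, scaled or as deposited, where 16.7% of 10335 genes did so as deposited, and both groups were used in the choice. Cnpy2 was at 3.44 ± 0.636 FPKM in KD blastocysts (SD, n = 4) against 6.65 ± 1.32 in control morulae, and Wfdc15a at 7.38 ± 2.84 against 16.6 ± 3.04 (n = 4). Gm9465 was at 2.82 ± 1.02 FPKM against 6.52 ± 0.734. Gm32468 overlapped, with KD blastocysts between 1.11 and 2.13 FPKM and control morulae between 2.03 and 8.74. The 10 markers of morulae and blastocysts were read in the same groups. The trophectoderm keratin Krt18 was at 390 ± 55.6 FPKM in KD blastocysts, 62.7 ± 14.6 in control morulae and 799 ± 149 in control blastocysts (SD, n = 4 each), and Krt8 at 239 ± 58.6, 27.1 ± 5.54 and 343 ± 102 FPKM. In the same order, Sox2 was at 1.36 ± 0.351, 0.125 ± 0.116 and 1.67 ± 0.276 FPKM and Sox17 at 0.277 ± 0.121, 0.00251 ± 0.00501 and 0.596 ± 0.395 FPKM. For these 4 genes KD blastocysts lay above all control morulae. For the other 6 they overlapped: Nanog was at 161 ± 47.8, 106 ± 33.2 and 132 ± 42.8 FPKM, Pou5f1 at 25.7 ± 14.3, 31.9 ± 15.8 and 14 ± 6.63, Gata6 at 19 ± 11.8, 14.2 ± 9.1 and 10.6 ± 5.87, Cdx2 at 1.89 ± 0.938, 0.944 ± 0.176 and 1.79 ± 0.765, Fgfr2 at 5.43 ± 2.38, 4.22 ± 2.13 and 5.73 ± 2.12, and Dppa3 at 4979 ± 1294, 6264 ± 1217 and 4733 ± 980. Of the 10, Krt18 alone had KD blastocysts below all control blastocysts. In KD morulae (n = 3), Nanog, at 20.7 ± 10.8 FPKM, and Pou5f1, at 19.1 ± 2.56 FPKM, lay below all control morulae as deposited. This was so for 22.9% of 10989 genes. For Pou5f1 the margin was narrow, with 21.3 FPKM in the highest KD library and 21.5 in the lowest control library. How far a later or earlier stage of the pooled embryos takes part in the values of the 6 genes was not tested.

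Around the limit of the choice, 12 of the 10335 genes tested at both stages had a log2 fold change of -2 or below in both morulae and blastocysts (0.116%). Of these, 6 are the genes described here. The other 6 were H2afz, Gm6722, Gm13007 and a group of MAGE-A genes, Magea8, Magea5 and Magea2, members of a family expressed mainly in germ cells and tumours. The MAGE-A genes shared no run of 11 bases or more with the H2afz mRNA on either strand, like Smim11 and Wfdc15a among the 6 genes listed. Their log2 fold changes were -3.06 and -3.29 for Magea8, -2.84 and -3.18 for Magea5 and -2.23 and -2.62 for Magea2, in morulae and blastocysts. Just inside the limit were Gm9465, with -2.05 and -2.01, and Wfdc15a, with -2.03 and -2.73. Just outside it were 5 genes, Cox7b2 with -1.98 and -2.18, Nme7 with -1.89 and -2.44, Gm14409 with -1.96 and -1.86, H2afv with -2.94 and -1.86, and Cdc123 with -1.80 and -2.10.

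The genes lie apart in the genome, on chromosomes 2, 6, 10, 13 and 16, with Cnpy2 (chr10:128322459-128327553, plus strand) and Gm32468 (chr10:93084206-93093727, plus strand) both on chromosome 10 but far from each other. Smim11 lies at chr16:92301286-92313041 on the plus strand, Wfdc15a at chr2:164198863-164200130 on the minus strand and Gm9465 at chr13:98713074-98716510 on the minus strand. Apart from Tmcc1, whose minus strand span also holds the antisense gene Gm20404 and Gm8203, the only overlap was that of Smim11 with the antisense gene 1700048M11Rik. Without strand, reads of a gene and its antisense partner cannot be told apart. As quantified, 1700048M11Rik had a mean of at most 0.561 FPKM in any group and Gm20404 of at most 1.93 FPKM.

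Genes that overlap the 6 genes and the nearest genes past the filter on each side were read as well. They are too few for their share of DEGs to be set against that of all genes. In morulae no neighbour or overlapping gene was a DEG, where 2.59% of 10989 genes were lower DEGs and 1.00% were higher DEGs, but 1 or 2 were past the limits in 9 of 12 other settings. These were Tmem171 (lower, 5 settings), Sdc4 (higher, 3 settings) and Cdk17 (higher, 2 settings). In blastocysts, where 7.76% of 11828 genes were lower DEGs and 6.10% were higher DEGs, Gm8203 and Tmem171 were lower and Rcan1 was higher. Gm8203 no longer passed the filter without control replicate 1, 4 or 5. Pan2, which ends 1.10 kb before Cnpy2, was at 1.97 ± 0.596 FPKM in control and 1.25 ± 0.203 in KD morulae (SD, n = 4 and 3, adjusted p = 0.254 in limma). In blastocysts Pan2 was at 2.46 ± 0.300 and 2.93 ± 0.622 FPKM (n = 4 each, adjusted p = 0.421 in limma). Cs, the gene of citrate synthase on the other side, had log2 fold changes of -0.59 ± 0.20 and -0.23 ± 0.18 (SE) with adjusted p-values of 0.0755 and 0.344 in limma. The pseudogene Gm8213, 1.93 kb from Tmcc1, had log2 fold changes of 0.08 ± 0.19 and 0.13 ± 0.19.

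Near Gm9465, Tmem171, a membrane protein gene 18.2 kb away, was at 29.8 ± 3.48 FPKM in control and 13.7 ± 4.01 in KD blastocysts (SD, n = 4 each), with a log2 fold change of -1.10 ± 0.24 (SE, adjusted p = 0.00387 in limma). In morulae, where it was at 2.04 ± 0.749 and 0.433 ± 0.0454 FPKM (n = 4 and 3), the adjusted p was 0.0159 in limma and the fold change just short of the limit. Without KD blastocyst replicate 5 the blastocyst value was -0.85, short of that limit. Fcho2, an endocytosis gene 6.89 kb away on the other side, had log2 fold changes of 0.20 ± 0.15 in morulae and -0.18 ± 0.16 in blastocysts, with adjusted p-values of 0.396 and 0.413. Rcan1, a regulator of calcineurin 78.9 kb from Smim11, was at 5.70 ± 2.15 FPKM in control and 13.1 ± 4.73 in KD blastocysts, with a log2 fold change of 1.08 ± 0.23 (adjusted p = 0.0035 in limma). That call was lost without control replicate 1 (0.94), control replicate 4 (0.99) or KD replicate 5 (0.92).

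The families of the protein-coding genes were read as lists of symbols, without the 6 genes. Tmcc2 and Tmcc3 did not pass the filter in morulae or blastocysts. Of the canopy family, Cnpy3 and Cnpy4 were tested, and Cnpy4 was a lower DEG at both stages. Cnpy4 was at 11.7 ± 1.91 FPKM in control and 4.34 ± 1.03 in KD morulae (SD, n = 4 and 3), with a log2 fold change of -1.15 ± 0.19 (SE, adjusted p = 0.00574 in limma), and at 8.60 ± 1.87 and 2.62 ± 1.22 FPKM in blastocysts, with -1.44 ± 0.24 (n = 4 each, adjusted p = 0.000771 in limma). Cnpy3, a chaperone of Toll-like receptors, had log2 fold changes of -0.30 ± 0.33 and -0.24 ± 0.19. At the 2-cell stage Cnpy4 was at 54.8 ± 4.33 FPKM in control and 56.9 ± 0.863 in KD libraries. Of 20 other genes of the whey acidic protein family, Wfdc2 alone passed the filter in blastocysts, where it was a lower DEG, at 31.5 ± 3.30 FPKM in control and 11 ± 2.73 in KD libraries (log2 fold change -1.46 ± 0.18, adjusted p = 0.000113 in limma).

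The name Smim marks small membrane proteins that need not be related to each other. Of 29 other Smim genes, 17 were tested in morulae, where none was a DEG and the median log2 fold change was -0.24 against 0.02 for all genes. A total of 5 of these 17 had an adjusted p under 0.05 in limma, all with lower values in KD (9.05% of all genes were lower and 4.22% higher at this limit), among them Smim15 (-0.86 ± 0.14, SE) and Smim26 (-0.92 ± 0.18). In blastocysts 18 were tested, 5 were lower DEGs and none was a higher DEG, where 7.76% and 6.10% of all genes were, and the median was -0.67 against 0.00 for all genes. The lower DEGs were Smim26 (-1.75 ± 0.22), a mitochondrial protein gene, Smim14 (-1.57 ± 0.18), Smim15 (-1.41 ± 0.19), Smim8 (-1.20 ± 0.30) and Smim19 (-1.18 ± 0.20). The Smim8 call was lost without control replicate 1 (-0.96) or KD replicate 5 (-0.99), and with no filter on low values (adjusted p = 0.069 in limma). With an adjusted p under 0.05 in limma alone, 12 of the 18 had lower values in KD blastocysts (19.8% of all genes) and 3 had higher values (16.7%). The 3 were Smim40, Smim40-ps and Smim13, at log2 fold changes of 0.90, 0.94 and 0.58. Smim40-ps was a higher DEG in 4 other settings and Smim40 in 2.

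TMCC1 works with proteins that shape the ER and tie it to endosomes. Of 30 genes for such proteins, 21 were tested in morulae, where 1 was a lower DEG and none a higher DEG (2.59% and 1.00% of all genes), with a median log2 fold change of -0.10 against 0.02 for all genes. The DEG was Stard3, which tethers the ER to late endosomes, at 3.68 ± 0.824 FPKM in control and 0.957 ± 0.14 in KD morulae (SD, n = 4 and 3, log2 fold change -1.16 ± 0.18, adjusted p = 0.00521 in limma). In blastocysts 22 were tested, 1 was a lower DEG and none a higher DEG (7.76% and 6.10% of all genes), with a median of -0.19. That DEG was Osbpl1a, an oxysterol binding protein of ER contact sites, at 1.70 ± 0.702 and 0.172 ± 0.061 FPKM (log2 fold change -1.16 ± 0.19, adjusted p = 0.000661 in limma), which no longer passed the filter without control replicate 1, 4 or 5. Coro1c, the partner of TMCC1 in endosome division, had log2 fold changes of -0.30 ± 0.19 in morulae and 0.39 ± 0.24 in blastocysts, with adjusted p-values of 0.318 and 0.239 in limma.

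A list of genes linked with CNPY2 was read as well. Of 22 such genes, most of them of the ER stress response, which make 23 entries because Ddit3 is listed under 2 identifiers, 16 entries were tested in morulae and none was a DEG. Atf6 alone had an adjusted p under 0.05 there (-0.62 ± 0.17, adjusted p = 0.0351 in limma). In blastocysts 18 entries were tested, 1 was a higher DEG and none a lower DEG, against 6.10% and 7.76% of all genes, and the median log2 fold change was 0.34 against 0.00 for all genes. The DEG was Herpud1, an ER protein induced in the unfolded protein response, at 7.67 ± 2.61 FPKM in control and 21.8 ± 7.04 in KD blastocysts (SD, n = 4 each, log2 fold change 1.41 ± 0.22, adjusted p = 0.000505 in limma). In all, 5 of 18 entries had higher values in KD blastocysts with an adjusted p under 0.05 and none had lower values, where 16.7% and 19.8% of all genes did so. No test of the list as a group was made. They included the chaperone gene Hspa5, at 285 ± 105 and 428 ± 108 FPKM (log2 fold change 0.64 ± 0.23, adjusted p = 0.0453), and Calr, with 0.71 ± 0.25 (adjusted p = 0.044). Eif2ak3, the gene of PERK, had 0.11 ± 0.15 (adjusted p = 0.596).

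The genes with the most similar values over the 22 libraries were found by Pearson correlation of log2(FPKM + 1) among 15466 genes, as a description, since the libraries share their stage and condition. The 3 nearest to Tmcc1 were Gm13007 (r = 0.947), Gm6722 (0.934) and H2afz (0.932), all of which hold H2afz sequence. The nearest to Cnpy2 were Akr1e1 (0.988), Gm33222 (0.973) and Tmem116 (0.973). For Smim11 they were Zfp560 (0.967), Xlr4c (0.955) and Nme7 (0.952), which also had control levels at the 2-cell stage. Zfp560 was at 16.0 FPKM in control 2-cell embryos, 10.9 in control and 4.30 in KD morulae, and 20.2 in control and 5.29 in KD blastocysts. The nearest to Wfdc15a were Nhlrc3 (0.982), Tmem9b (0.977) and Psmd10 (0.969), those to Gm32468 were Gml2 (0.971), Rbbp9 (0.967) and 2210418O10Rik (0.963), and those to Gm9465 were Nhlrc3 (0.963), 2210418O10Rik (0.961) and 1810014B01Rik (0.959). Among the 6 genes, r over the 22 libraries was between 0.932 and 0.965 for the pairs among Cnpy2, Wfdc15a, Gm32468 and Gm9465. Smim11 had r of 0.191 to 0.360 with these, 0.711 with Tmcc1 and 0.823 with H2afz. The r of Cnpy2, Wfdc15a, Gm32468 and Gm9465 with H2afz was 0.446 to 0.539.

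Apart from Tmcc1, the genes shared little sequence with H2afz. The longest run shared with the H2afz mRNA was 11 bases for Cnpy2 on the same strand, 11 for Gm32468 and 12 for Gm9465 on the opposite strand, and under 11 for Smim11 and Wfdc15a on either strand. Among all genes, 37.9% shared a run of at least 11 bases on the same strand. Over all 7 annotated transcripts of H2afz, introns retained in some of them included, Gm9465 shared 20 bases on the same strand, a repeat of short T-rich units shown here because it was the longest same-strand run of the 6 genes: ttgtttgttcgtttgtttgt. Of the stretches of 31 bases in the transcripts of each gene, none occurred in another gene for Smim11 and Wfdc15a. The share was 1.62% for Cnpy2, 4.97% for Gm32468, 5.37% for Gm9465 and 5.58% for Tmcc1. Of the 1125 such stretches of Tmcc1, 639 occurred in H2afz, with those of Gm8203 inside the same run, and 202 occurred in Gm20404.

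Promoters of 5 of the genes were in the RefSeq table used (GRCm38.p6), from 250 bases before to 50 after the start, and the table had no entry for Tmcc1. The numbers of CpG dinucleotides were 11 for Cnpy2, 21 for Smim11, 9 for Wfdc15a and 1 for Gm9465. Gm32468 had 8 at the first of its 2 starts and 0 at the second. The median over 32851 promoters was 7. Stretches of 60 bases show this range, with CpG in capitals, read in the direction of transcription. They end at the annotated gene start for 4 genes, and for Gm9465 at the RefSeq start, 1.76 kb upstream of the annotated gene.
Cnpy2, chr10:128322399-128322458, plus strand: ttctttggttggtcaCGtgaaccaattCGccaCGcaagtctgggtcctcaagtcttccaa
Smim11, chr16:92301226-92301285, plus strand: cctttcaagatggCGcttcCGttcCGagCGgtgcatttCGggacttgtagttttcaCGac
Wfdc15a, chr2:164200131-164200190, minus strand: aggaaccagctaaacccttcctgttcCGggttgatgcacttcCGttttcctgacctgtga
Gm32468, chr10:93084146-93084205, plus strand: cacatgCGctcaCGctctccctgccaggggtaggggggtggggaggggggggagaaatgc
Gm9465, chr13:98718271-98718330, minus strand: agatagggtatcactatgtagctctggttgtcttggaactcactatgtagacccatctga
These stretches hold 3, 6, 2, 2 and 0 CpG.

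A total of 5 motifs were searched in these windows on both strands. They were CCAAT (the CCAAT box), GGGCGG (the GC box), CACGTG (the E-box), CCGGAAG (the ETS motif) and TATAAA (the TATA box). No matches overlapped. CACGTG stood 47 bases and CCAAT 39 bases before the start of Cnpy2. They lie 2 bases apart in a stretch at chr10:128322402-128322434 (plus strand), with both motifs in capitals.
Cnpy2: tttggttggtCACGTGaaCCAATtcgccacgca
Among the 32851 promoters, 7.15% held CACGTG and 37.4% held CCAAT. Smim11 had GGGCGG on the other strand, 31 bases after the start (35.7% of promoters), and Gm9465 had TATAAA on the other strand, 86 bases before the start (13.6%). No match was found for Wfdc15a or Gm32468, and CCGGAAG, held by 8.86% of promoters, was in none of the windows. No motif was shared by any pair of the genes.

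Markers of other cells that a pool of embryos could carry were read in the same libraries. None of 10 cumulus and granulosa cell genes reached a group mean of 1 FPKM, with summed levels of 0.0473 to 0.735 FPKM and Star as the most abundant. None of 6 sperm genes did so either, with summed levels of 0.209 to 1.77 FPKM and Prm2 or Odf1 as the most abundant. The summed level of 5 blood genes overlapped between groups at the 2-cell stage, with 4.68 to 6.1 FPKM in control and 2.74 to 8.37 in KD libraries. It was higher in KD at the later stages, with 2.05 to 5.57 FPKM in control and 6.37 to 14.0 in KD morulae, and 1.3 to 3.11 in control and 3.56 to 5.87 in KD blastocysts. Almost all of this was from Hba-a1 and Hba-a2, with Hba-a1 the most abundant, while Hbb-bs and Hbb-bt were at 0 in all 22 libraries and Ptprc was at or under 0.0195 FPKM. The summed level of 5 genes of the 2-cell stage was 0.428 to 3.36 FPKM in control and 4.09 to 27.8 in KD blastocysts, with Tcstv3 the most abundant, against 328 to 595 FPKM in control 2-cell embryos. In morulae this level overlapped, with 5.58 to 17 FPKM in control and 9.42 to 16 in KD libraries. The part of these genes' sources in the values of the 6 genes was not tested.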

How the data were processed

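Values are FPKM deposited by the authors, made with StringTie 2.1.4 from STAR alignments to mm10. Their DESeq2 1.30.1 tests used featureCounts 1.6.2 counts that were not used here. The 6 genes and the lists were chosen with earlier results of these data known. Within each stage, FPKM were divided by a factor for each library (median of ratios, 0.893 to 1.17), 1 was added and log2 was taken. Genes reaching 1 FPKM in 3 or more of a stage's libraries were tested with limma 3.58.1 in R 4.3.3 (lmFit, eBayes with a trend, no covariates), adjusted by Benjamini-Hochberg over all genes tested, and called DEGs if the adjusted p was below 0.05 and the log2 fold change beyond 1 in either direction. P-values set the difference of group means against the spread between these pools of embryos. In limma the spread of each gene is drawn towards a trend over all genes. Steps were tested on simulated data. Exact permutation tests used log2(FPKM + 1) without scaling. The KD effects of the 2 later stages were compared as an interaction in a single limma fit. Genes were named by a rule: the 6 genes, H2afz and H2afv, overlapping and nearest genes, families by symbol, 2 lists of linked genes, the 3 genes most similar to each, and genes at or near the fold limit. Of the gene identifiers, 54587 matched GENCODE M21, which gave positions and transcripts. Runs of identical bases were searched from 11 bases up on both strands with Python 3.11.15 (pandas 2.3.3, numpy 2.4.6), and figures were drawn with matplotlib 3.10.9. Alternatives were another pseudocount (0.1), no filter, no scaling, each library left out, replicate number as a block and, added after the data were seen, low and high replicate numbers as batches.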

Additional observations from a re-analysis of the deposited data

Results flagged for a closer look

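Smim11 in KD blastocyst replicate 4, at 7.30 FPKM, stood apart from the other 3 KD blastocyst libraries, at 3.43 to 3.94 FPKM. This was 1 of 32 groups of 4 libraries examined for the 6 genes, H2afz and H2afv, and chance alone gives about 1 in 20.

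An interaction test in limma over 12727 genes compared the KD effect between blastocysts and morulae. Among neighbours and list genes that were DEGs at either stage and past the filter at both, 2 of 9 had an adjusted p under 0.05. Being a DEG at 1 of the stages favours such a difference, and 41.4% of all 1530 such genes had one, so these 2 are no more than that share. The difference (blastocyst minus morula, log2) was 1.87 for Herpud1 (adjusted p = 0.0106) and 1.20 for Rcan1 (adjusted p = 0.0173), both with higher KD values in blastocysts. The 6 chosen genes were left out, because both contrasts were used to choose them.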

How the results depend on the processing

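In all fits with other settings, the 6 genes kept negative log2 fold changes, of -1.37 or below in morulae and -1.78 or below in blastocysts, so some left the limit of -2 used in their choice. At the 2-cell stage none of the 3 tested genes became a DEG. Tmcc1 lay between -2.04 and -1.05 when any 1 library was left out, with an adjusted p of 0.61 or more, and at -1.70 with low and high replicate numbers as batches (chosen after seeing the data). Wfdc15a, at -0.06, was at -0.27 without KD replicate 4 and changed sign without KD replicate 1 (0.16) or control replicate 2 (0.03).

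The number of DEGs at the 2-cell stage, 0 with all libraries, was 0 to 3 with 1 library left out. The 3 were H2afz, Gm6722 and Hmgb1-ps6 without KD replicate 1, and without control replicate 2 there was 1, Gm43602. The cause was not tested. In morulae it was 395, with 322 to 527 when 1 library was left out, 790 with a pseudocount of 0.1 and 171 with no filter, where more genes of low level are tested. In blastocysts it was 1640, with 1437 to 1812 when 1 library was left out and 2479 with a pseudocount of 0.1, which raises fold changes of genes of low level and took the Smim family from 5 to 8 DEGs, 1 of them (Smim40-ps) higher in KD. Without scaling, 14.3% of 495 morula DEGs were higher in KD, against 27.8% of 395, and the median of all morula genes was -0.09 in place of 0.02.

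Replicate numbers were not taken as pairs, since same-numbered libraries did not all deviate together (r of 0.0147 to 0.214 at the 2-cell stage, 0.0943 and 0.181 in morulae, -0.11 to 0.353 in blastocysts). In morulae these deviations had r of 0.0943 to 0.346 within a range of replicate numbers and -0.278 to -0.0944 between ranges, against -0.0211 to 0.214 and -0.237 to 0.0102 at the 2-cell stage. In blastocysts they overlapped fully (-0.341 to 0.353 and -0.381 to 0.401). Deviations from a group mean sum to 0, which favours opposite signs between ranges. Blocking on the replicate number gave 0, 521 and 1646 DEGs, and 42.2% of the 521 morula DEGs were higher in KD. The morula log2 fold changes of Smim11, Gm32468, Wfdc15a and Cnpy2 were then -1.78, -1.37, -1.89 and -1.98. In morulae this fit takes the KD effect from replicate numbers 1 and 2 alone, the only numbers found in both groups.

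Depth is unknown, so values under 1 FPKM carry no interval. Fragments shared with H2afz make the Tmcc1 values uncertain at every setting.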
